A study of Mus musculus with 8 samples.

Results

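The genes described here encode the nuclear subunits of the mitochondrial respiratory chain (complexes I to IV) and of ATP synthase (complex V). They were taken by the start of their symbol in the platform's gene table, which is Ndufa, Ndufb, Ndufc, Ndufs or Ndufv for complex I, Sdha to Sdhd for complex II, Uqcr for complex III, Cox4 to Cox8 for complex IV and Atp5 for complex V. The rule found 94 of the 18193 genes that had a probe set of their own, and each was read from the probe set with its highest mean signal over 8 arrays. Of the 94 members, 82 were subunits, and 12 were assembly factors whose names share the prefixes (Ndufaf and Sdhaf genes), which were kept as a class of their own. A filter on weak signals, a mean log2 value of at least 8.24, was passed by 88 members and by 12110 genes in all. The 6 members below it were Ndufb1, Cox7c and the tissue forms Cox6b2, Cox7a1, Cox7b2 and Cox8b.

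Complex I takes electrons from NADH and complex II takes them from succinate. Complex II is also a step of the citrate cycle. Complexes I and II pass them through ubiquinone to complex III and through cytochrome c to complex IV, which reduces oxygen. Complexes I, III and IV pump protons across the inner membrane, and complex V lets them flow back to make ATP. Liver relies on this chain for the ATP that gluconeogenesis and urea synthesis consume, and for the oxidation of fatty acids.

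Gene expression had been measured in livers of mice of 2 arms on days 0, 1, 2 and 5 after TCPOBOP. TCPOBOP activates the constitutive androstane receptor and makes mouse hepatocytes divide without injury, and the question was how the liver responds to it when signalling by MET and EGFR, the receptors of hepatocyte growth factor and epidermal growth factor, is blocked. All mice carried a floxed Met gene and a tamoxifen-inducible Cre (METfl/fl: TamCre+/+). The MET KO + EGFRi arm received 5 injections of tamoxifen (100 µl at 10 mg/ml) to delete Met systemically, so the deletion was not limited to hepatocytes. Its diet held canertinib, an EGFR inhibitor, from the day before TCPOBOP, with an aimed intake of 80 mg/kg/day. The control arm was littermates injected with corn oil, without canertinib. Both arms received 3 mg/kg TCPOBOP by gavage. Met deletion, tamoxifen and canertinib came together in 1 arm and cannot be told apart. Age, sex, the number of mice in a pool and whether day 0 mice had been dosed with TCPOBOP are not given in the labels.

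Each of the 8 groups was a pool of livers hybridised to 1 array, which leaves the variation among mice unmeasured. Arms were compared over the 4 days. Each array's signals had a trimmed mean of 500. Cyp2b10, the best known target of the receptor that TCPOBOP activates, read 356 and 444 on the day 0 arrays of MET KO + EGFRi and control, and between 32027 and 48292 on the 6 later arrays. The Met probe set read 1049 to 2034 in MET KO + EGFRi livers and 926 to 1444 in control livers. The labels do not say which exon is deleted, so this does not check the knockout. Alb, a hepatocyte marker, read between 37254 and 77082 on all 8 arrays.

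Subunits of the respiratory chain mostly had lower signals in MET KO + EGFRi livers than in control livers, by a small amount. No single member passed the test. The median member of each of complexes I to V was lower, though that of complex II was near 0 after day 0. Averaged over the 4 days, 68 of the 76 subunits above the filter were lower in MET KO + EGFRi livers, and the median difference of the subunits was -0.18 on the log2 scale. The differences were computed as log2(signal + 71), which understates those of weak genes. Of all 88 members, 73 (83%) were lower, against 49.6% of all genes and 49.4% of the 7166 genes above the upper quartile of signal. The median over the 88 members was -0.16, against 0.0022 over all genes. Of the 12 assembly factors 5 were lower and 7 higher, with a median of 0.028 that ran from -0.014 to 0.096 with 1 array left out. Their difference from the subunits was not tested, and of 29 assembly factors outside the prefixes 21 were lower, with a median of -0.076.

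In limma's fit of arm and day across all 12110 genes, 0 members had a Benjamini-Hochberg adjusted p under 0.05 in either direction, and the background of such calls was 0.157% lower and 0.405% higher. The smallest adjusted p of a member was 0.111, for Ndufs5. At an unadjusted p under 0.05, 16 members were lower and 0 higher, against 5.98% lower and 6.14% higher over all genes and 6.99% lower over the genes above the upper quartile. That count of 16 became 5 without either array of day 1 and 7 without either array of day 0. On 4 of 4 days, 32 members were lower and 0 higher, against 10.3% lower over all genes and 11.1% over those above the upper quartile. With 1 pool per arm and day, the error behind these p-values is how much the arm difference varied over days. The sums of members' signals, as a percentage of all signal on the array, were 1.48, 1.34, 1.53 and 1.64% in the MET KO + EGFRi arm, by day, against 1.76, 1.56, 1.68 and 1.74% in control livers.

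**Figure D1:**
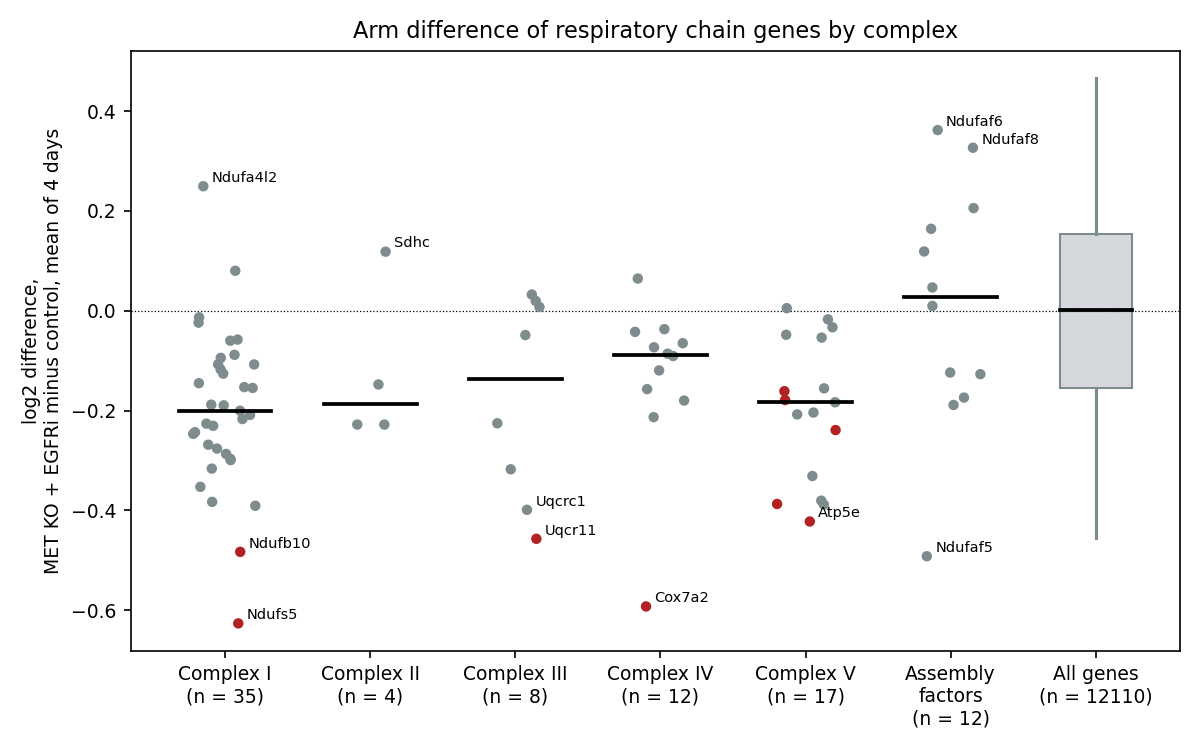
Log2 difference of each member above the filter, MET KO + EGFRi minus control, as the mean of 4 days (vertical axis), by complex, with the assembly factors and all 12110 genes on the right. Points are genes and black lines medians, red points are members whose 4 arrays did not overlap between arms, and the box and whiskers of all genes span the middle 50% and 90%. Most points of complexes I to V lie below 0, and points of the assembly factors lie on both sides.

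Markers of other cell types also differed between the arms. Kupffer cell and macrophage markers were higher in MET KO + EGFRi livers for 11 of 11 genes, with summed signals of 29371 to 52129 on the MET KO + EGFRi arrays and 16058 to 36655 on the control arrays. Neutrophil and monocyte markers summed to 11151 to 14561 in MET KO + EGFRi livers and 5199.9 to 6751 in control livers, and 8 of 9 above the filter were higher. Stellate markers summed to 14056 to 18131 in MET KO + EGFRi livers and 10726 to 12269 in control livers, with 4 of 8 higher. Hepatocyte markers summed to 258569 to 369104 in MET KO + EGFRi livers and 232880 to 375780 in control livers, with 7 of 8 higher. In limma's fit Cd5l of the macrophage list rose by 0.95 on the log2 scale (adjusted p 0.0487). Prtn3, S100a8 and S100a9 of the neutrophil list rose by 3.15, 1.95 and 1.69, and Dcn of the stellate list by 1.00 (adjusted p 0.000362, 0.00249, 0.00556 and 0.0318). Summed signals of the lymphocyte, endothelial, cholangiocyte, erythroid, and muscle and adipose lists overlapped between arms. None of these markers was listed at 0 on any array, and the part of these cells in the subunits' differences was not tested. In pooled tissue, fewer cells of a type and less RNA per cell cannot be told apart. The ratio of 3' to 5' actin probe sets, a measure of RNA integrity, was 1.57 to 2.36 on the MET KO + EGFRi arrays and 1.58 to 1.9 on the control arrays.

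For 9 members the 4 MET KO + EGFRi arrays lay entirely below the 4 control arrays, and for 0 members entirely above, against a background of 2.75% of all genes below and 3.49% above, and 2.92% below among genes above the upper quartile. These were Ndufs5 and Ndufb10 of complex I, Uqcr11 of complex III, Cox7a2 of complex IV, and Atp5b, Atp5e, Atp5h, Atp5l and Atp5o of complex V. Complex II had none. Ndufs5, Uqcr11, Cox7a2 and Atp5e were the members with the lowest mean difference in their complexes.

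**Figure D2:**
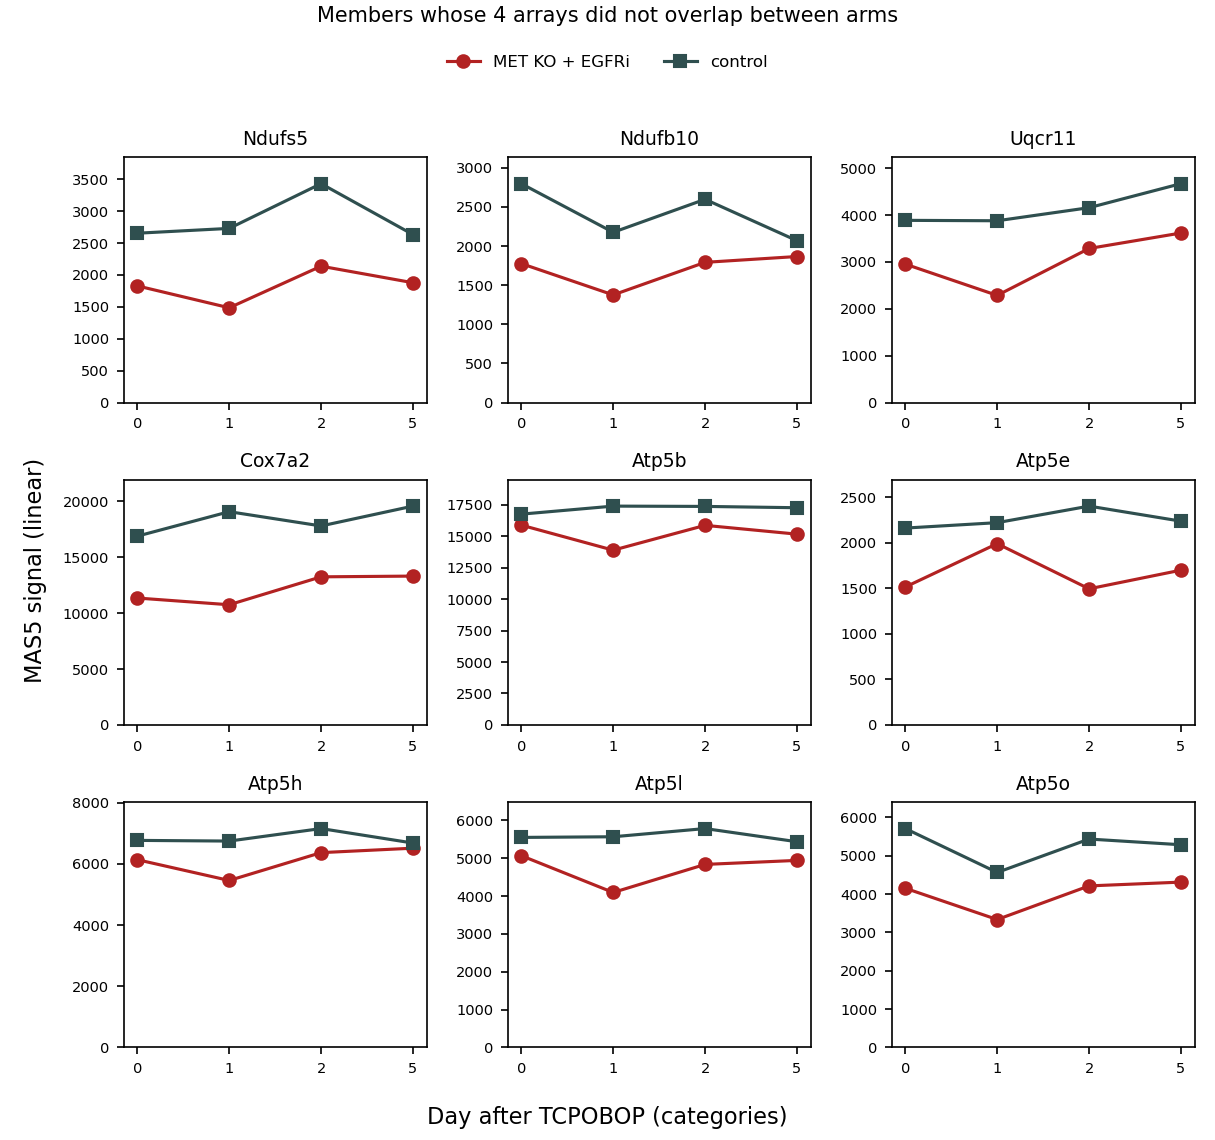
MAS5 signal (linear scale, each panel with its own axis from 0) of the 9 members whose arrays did not overlap between arms, by day after TCPOBOP. Red circles are MET KO + EGFRi and dark squares control, with 1 array of pooled livers each. The gap is wide for Ndufs5 and Cox7a2 and narrow for Atp5h and Atp5b.

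The 120 bases before the annotated start of 7 members are shown because motifs for regulators of respiratory genes are known from such promoters. They are the 6 non-overlapping members with the largest mean differences, taken whatever motifs they hold, and Sdhd, for its difference in response between arms. That difference was not called by limma and was not seen in the other probe set of Sdhd. The stretches are RefSeq sequences of GRCm38.p6, read 5' to 3' on the gene's own strand, which is the minus strand for all 7, and capitals mark a match to a searched motif on either strand. The Ndufs5 stretch lies at chr4:123718187-123718306, that of Cox7a2 at chr9:79759854-79759973, that of Ndufb10 at chr17:24724424-24724543, that of Uqcr11 at chr10:80406822-80406941, that of Atp5e at chr2:174464102-174464221, that of Atp5o at chr16:91931631-91931750 and that of Sdhd at chr9:50603850-50603969.
Ndufs5: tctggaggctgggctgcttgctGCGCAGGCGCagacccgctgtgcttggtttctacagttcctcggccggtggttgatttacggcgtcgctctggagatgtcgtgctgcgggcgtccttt
Cox7a2: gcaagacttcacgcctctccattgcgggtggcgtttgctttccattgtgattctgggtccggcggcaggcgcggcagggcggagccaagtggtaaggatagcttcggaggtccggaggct
Ndufb10: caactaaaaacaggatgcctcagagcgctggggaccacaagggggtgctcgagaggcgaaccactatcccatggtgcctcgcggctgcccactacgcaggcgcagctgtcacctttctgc
Uqcr11: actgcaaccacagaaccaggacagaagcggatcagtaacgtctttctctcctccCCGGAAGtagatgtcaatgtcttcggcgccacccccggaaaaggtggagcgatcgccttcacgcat
Atp5e: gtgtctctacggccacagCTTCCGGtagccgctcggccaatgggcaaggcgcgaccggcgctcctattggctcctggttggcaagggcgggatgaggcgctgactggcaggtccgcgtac
Atp5o: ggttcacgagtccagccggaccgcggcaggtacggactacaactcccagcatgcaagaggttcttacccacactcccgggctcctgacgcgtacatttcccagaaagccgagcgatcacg
Sdhd: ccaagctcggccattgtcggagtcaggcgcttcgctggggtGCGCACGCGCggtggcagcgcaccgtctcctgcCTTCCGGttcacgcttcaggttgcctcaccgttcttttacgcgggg

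Ndufs5 held a match to the motif of NRF1, a factor known to drive nuclear genes of the respiratory chain, and Uqcr11 and Atp5e held the core motif of ETS factors such as GABPA. Sdhd held both. Cox7a2, Ndufb10 and Atp5o held none of the motifs searched in these stretches, though Atp5o held an NRF1 match after the start, outside its stretch. Over windows from 250 bases before to 50 after the start, which 78 of the 94 members had in the table, 24.4% of members held the NRF1 motif, the GC-rich stretch in capitals in Ndufs5, against 10.3% of genes above the filter. The ETS motif (CCGGAAG) was in 28.2% of members and 17.7% of genes above the filter. The YY1 motif was in 4 members (5.13%) and 1.62% of those genes. The ERR motif (TCAAGGTCA) was in 2 members (2.56%) and 0.36%, and the CREB motif (TGACGTCA) in 3 (3.85%) and 3.22%. The NRF1 motif was in 36.4% of 11 assembly factors and 22.4% of 67 subunits, and the ETS motif in 45.5 and 25.4%. Both strands were searched, and none of the motifs contains another. Among subunits, the NRF1 motif was in 27.6% of the 29 that were lower in MET KO + EGFRi livers on 4 of 4 days and in 21.9% of the 32 others above the filter, and the ETS motif in 27.6 and 28.1%. A match is a description of the letters and not evidence of binding.

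In complex I, 33 of 35 members above the filter were lower in MET KO + EGFRi livers, with a median log2 difference of -0.20. Its core subunits carry the flavin and the iron-sulfur clusters, and its accessory subunits surround them. Of the accessory subunits 28 of 29 were lower, with a median of -0.21, and of the core subunits 5 of 6, with a median of -0.15. Ndufs5, an accessory subunit on the intermembrane face of the complex, had signals of 1829, 1486, 2138 and 1879 in the MET KO + EGFRi pools of days 0, 1, 2 and 5, against 2655, 2731, 3432 and 2634 in control livers. The arms did not overlap, and the gap was present on each day. Its mean log2 difference was -0.63 (SE 0.13), with a limma adjusted p of 0.111. A further probe set, shared with the pseudogene Ndufs5-ps, had 1153.5, 959.6, 1006 and 1175.5 in MET KO + EGFRi livers, against 1613, 1285, 1652 and 1307 in control livers, and also did not overlap.

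Ndufb10, an accessory subunit of the membrane arm, had signals of 1776, 1376, 1792 and 1867 in MET KO + EGFRi livers, against 2798, 2176, 2598 and 2069 in control livers. The day 5 pools lay closest to each other. Its mean difference was -0.48 (SE 0.14, limma adjusted p 0.224). Ndufb7, also of the membrane arm, had 3140.0, 2897, 3497 and 3438 in MET KO + EGFRi livers, against 5481, 2908, 4103 and 5037 in control livers, so that the arms were nearly equal on day 1 and far apart on days 0 and 5. Ndufb8, another accessory subunit, had 5004.5, 4292, 5366 and 6390.5 in MET KO + EGFRi livers and 7221.5, 5885, 7422 and 6840.3 in control livers, lower on each day with overlap between arms.

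Among the 6 core subunits, mean differences ran from -0.28 for Ndufs7, which was lower on 4 of 4 days, and -0.22 for Ndufs3 to 0.08 for Ndufv1. Ndufs1, which carries iron-sulfur clusters, had 1791, 2131, 2043 and 2093 in MET KO + EGFRi livers, against 2315, 2019.6, 2337 and 2142 in control livers, a mean difference of -0.13 (SE 0.13, limma adjusted p 0.765). Ndufv1, which binds the flavin that accepts electrons from NADH, was 1 of the 2 members of complex I that were higher, with 4631, 4049.9, 4797 and 5071 in MET KO + EGFRi livers and 4342, 4028, 4069 and 5116 in control livers. Its mean difference was 0.08 (SE 0.12). The other higher one, Ndufa4l2, had 392, 436, 441 and 474 in MET KO + EGFRi livers, against 396, 382, 193 and 515 in control livers and a mean difference of 0.25. The control array of day 2 was low. Without either day 2 array that difference was 0.014. Ndufa4 and Ndufa4l2 were counted in complex I by their symbols only. Ndufa4 is now known as a subunit of complex IV, and its mean difference was -0.19.

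Complex II has 4 subunits, the catalytic Sdha and Sdhb and the membrane anchors Sdhc and Sdhd, and 3 of them had a lower mean in MET KO + EGFRi livers. Sdhb, the iron-sulfur subunit, had 6141, 7336.5, 7829.6 and 9515.5 in MET KO + EGFRi livers, against 9629.9, 8462, 8471 and 9204.5 in control livers, with a mean log2 difference of -0.23 (SE 0.15, limma adjusted p 0.602). Sdhd had 4437, 5000.3, 5337 and 4534 in MET KO + EGFRi livers, against 7729.9, 4504, 5703 and 5129.7 in control livers. For both the gap lay at day 0 and was small afterwards. Sdha, the flavoprotein, had 7449, 6508.5, 7564 and 6413 in MET KO + EGFRi livers and 8541, 8172, 6156 and 8274 in control livers, below control on days 0, 1 and 5 and above it on day 2. Its mean difference of -0.15 became 0.018 when its 4 probe sets, 2 of them below the filter, were averaged. Sdhc had 4252.5, 3940.5, 4508 and 3394 in MET KO + EGFRi livers and 5519, 2468, 4073.5 and 3298 in control livers, and its mean difference was 0.12, which became -0.062 without either day 1 array.

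In complex III, 5 of 8 members were lower in MET KO + EGFRi livers, with a median of -0.14. Uqcr11, a small supernumerary subunit, had 2953, 2286, 3287 and 3617 in MET KO + EGFRi livers, against 3887, 3878, 4157 and 4669.8 in control livers. The arms did not overlap, with the widest gap on day 1. The mean difference was -0.46 (SE 0.13, limma adjusted p 0.227). Uqcrc1, a core protein on the matrix side, had 6424, 6152, 8344 and 8137 in MET KO + EGFRi livers, against 10026, 8065, 9824 and 10305 in control livers. It was lower on each of the 4 days, and only the day 2 and day 5 MET KO + EGFRi pools exceeded the lowest control pool, that of day 1. The difference was -0.40 (SE 0.13, limma adjusted p 0.281). Its partner Uqcrc2 had 8079, 7664, 9270.5 and 9102 in MET KO + EGFRi livers and 9074, 7264, 8292.5 and 9048 in control livers, a difference of 0.02 (SE 0.12) that became -0.085 when its probe sets were averaged. Uqcrfs1, the Rieske iron-sulfur protein, had 6301, 5526, 6364 and 6171 in MET KO + EGFRi livers, against 9749.8, 6995, 8015 and 6088 in control livers, lower on days 0, 1 and 2 and nearly equal on day 5. The hinge protein Uqcrh differed by 0.032 on average, and by 0.44 on day 5.

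In complex IV, 11 of 12 members above the filter were lower in MET KO + EGFRi livers, but by little, with a median of -0.088. Cox7a2, the liver form of a small subunit, stood apart from the others, whose mean differences ran from -0.21 to 0.065 in their brightest probe sets. Its signals were 11343, 10742, 13236 and 13302 in MET KO + EGFRi livers, against 16870.5, 19057, 17782.5 and 19555.5 in control livers. The arms were well separated on each day. The mean difference was -0.59 (SE 0.13, limma adjusted p 0.135). A further probe set for Cox7a2 had 6764, 6378.5, 6247 and 7497 in MET KO + EGFRi livers, against 8008, 8173, 8992 and 9601 in control livers, and again did not overlap. Cox4i1, the ubiquitous form of a subunit at which ATP regulates the enzyme, had 12418, 11649.9, 16430.1 and 18369 in MET KO + EGFRi livers and 12907, 14136, 14076 and 19129.7 in control livers, with overlap and a mean difference of -0.042 (SE 0.14). Cox5a, a matrix-side subunit, had 13995, 10881, 12876 and 17033 in MET KO + EGFRi livers and 16291, 15791, 17264 and 13621 in control livers, lower on days 0, 1 and 2 and higher on day 5. A further probe set of Cox5a differed by -0.59 on average, close to Cox7a2, but was lower on days 1 and 2 only. Another differed by -0.14. Cox6c and Cox7a2l, also of complex IV, differed by -0.18 and -0.037 on average, with overlap, and both turned above 0 (0.055 and 0.058) when the probe sets of a gene were averaged.

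The tissue forms of complex IV subunits overlapped between arms. Cox6a2, known from heart and muscle, had 644.5, 509.5, 608 and 586 in MET KO + EGFRi livers and 594, 689, 529.5 and 715 in control livers. Cox4i2, known from lung, had 346, 529, 427 and 496 in MET KO + EGFRi livers and 569, 426, 454 and 435 in control livers. Cox8c had 2959.5, 3031, 2329.6 and 2712 in MET KO + EGFRi livers and 3516, 2551.5, 3102 and 2599.6 in control livers. In these probe sets, the brightest of each gene, none of the 3 genes was lower, or higher, on all 4 days. A further, weaker probe set of Cox6a2 was higher on each day, by 0.93 on average, with overlap between arms. The muscle forms Cox7a1 and Cox8b, below the filter, read at most 122 and 46.9 on any array.

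In complex V, 16 of 17 members were lower in MET KO + EGFRi livers, with a median of -0.18. The F1 head makes ATP, the c ring turns with the proton flow, and the stalk and membrane subunits hold both together. All 9 stalk or membrane subunits and all 5 F1 subunits were lower on average, with medians of -0.21 and -0.18, while the 3 c-ring genes Atp5g1, Atp5g2 and Atp5g3 had mean differences of -0.033, 0.0052 and -0.017. These rest on single days: Atp5g1 differed by -0.32, -0.052, -0.52 and 0.76 on days 0, 1, 2 and 5, and without either day 5 array its mean was -0.298. With 1 array left out the sign of each of the 3 turned, and the difference from the other subunits of complex V was not tested. Atp5e, the epsilon subunit of F1, had 1513.5, 1989, 1493.5 and 1698 in MET KO + EGFRi livers, against 2159.9, 2219, 2401 and 2236 in control livers. The arms did not overlap, and the gap was narrow on day 1. The mean difference was -0.42 (SE 0.13, limma adjusted p 0.27). Atp5o, the stalk subunit that confers sensitivity to oligomycin, had 4150.1, 3335, 4212 and 4310.5 in MET KO + EGFRi livers, against 5707, 4563, 5434 and 5285 in control livers, lower on each day without overlap. Its difference was -0.39 (SE 0.12, limma adjusted p 0.253). A further, much weaker probe set was lower on each day but overlapped between arms, with a mean difference of -0.42.

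Atp5c1, the gamma subunit that rotates inside the head, had 5551, 6383, 7508 and 8093 in MET KO + EGFRi livers, against 9850.2, 7779, 8798 and 9263 in control livers. The gap was wide on day 0 and narrower on later days, and the mean difference was -0.38 (SE 0.15, limma adjusted p 0.366). Without either day 0 array it was -0.234, and a further, much weaker probe set gave -0.11. Atp5b, the catalytic beta subunit, had 15869, 13881, 15852 and 15153 in MET KO + EGFRi livers, against 16741, 17379.6, 17355 and 17251 in control livers, a small difference of -0.18 (SE 0.12) without overlap. Atp5h, the stalk subunit d, had 6138, 5459, 6369.5 and 6515 in MET KO + EGFRi livers, against 6769.9, 6748, 7157 and 6683 in control livers. Atp5l, the membrane subunit g, had 5067, 4095, 4836.5 and 4943 in MET KO + EGFRi livers, against 5550.2, 5567, 5784 and 5436 in control livers. Neither overlapped between arms, though the gaps were narrow. The mean differences were -0.16 for Atp5h and -0.24 for Atp5l, with limma adjusted p of 0.666 and 0.5. A further probe set of Atp5h did overlap between arms. It had 4485, 3714, 6293 and 6611.5 in MET KO + EGFRi livers and 5822.5, 5381, 6358 and 6223 in control livers. Atp5a1, the alpha subunit of F1, had 13299, 14206.5, 19486 and 16417.5 in MET KO + EGFRi livers and 17234, 14230.4, 16111 and 17493 in control livers, with overlap and a mean difference of -0.048. Its direction turned to 0.060 without either day 0 array.

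Assembly factors help to build the complexes and leave them afterwards. Ndufaf5, which acts on a core subunit of complex I, had 416.5, 281, 298 and 295 in MET KO + EGFRi livers, against 582, 474, 546 and 343 in control livers, lower on each day with overlap and a mean difference of -0.49 (SE 0.16, limma adjusted p 0.293). Ndufaf6 and Ndufaf8, also factors of complex I, were on the other side. Ndufaf6 had 619.5, 665, 809 and 747 in MET KO + EGFRi livers, against 716, 455, 514 and 483 in control livers, below control on day 0 and above it on the later days. Ndufaf8 had 1406, 1766, 1705 and 1789 in MET KO + EGFRi livers and 1376, 1818, 1068.5 and 1093 in control livers, apart on days 2 and 5 only. Their mean differences were 0.36 and 0.33, with limma adjusted p of 0.449 and 0.494. A weaker probe set of Ndufaf8 went the other way, with a mean difference of -0.30, and the mean of both was 0.015. Sdhaf2, which helps to insert the flavin into Sdha, had 2697, 2088, 1819 and 1739 in MET KO + EGFRi livers and 3159.7, 2424, 2128 and 1798 in control livers, with lower values on later days in both arms. Sdhaf4, also a factor of complex II, differed by -0.19 on average, and Sdhaf3 by 0.047.

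Most other probe sets of these genes shared the direction. Of all 160 probe sets of members above the filter, 129 were lower in MET KO + EGFRi livers and 31 higher. Of the 72 further probe sets of members already counted, 54 had the sign of the chosen one. Probe sets that the platform's table assigns to several genes, among them those of Ndufs6 and Ndufa11, were left out of the members, and 6 of 9 above the filter were lower.

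Day by day, the difference was larger at the start than at the end. The median over the 88 members was -0.20 on day 0, -0.23 on day 1, -0.12 on day 2 and -0.092 on day 5, against -0.029, 0.0083, 0.023 and -0.011 over all genes. In that order of days, 70, 69, 61 and 61 members were lower in MET KO + EGFRi livers, against 53.2, 49.3, 47.7 and 51.3% of all genes. On the day 0 arrays, where the gap was present, Cyp2b10 was low in both arms, and a relation between the gap and TCPOBOP was not tested. The complexes differed in how long the gap lasted. Complex I had medians of -0.23, -0.23, -0.16 and -0.13 and complex V had -0.23, -0.29, -0.17 and -0.17, so both were lower on each day. Complex III had -0.15, -0.29, -0.16 and -0.0097, and complex IV had -0.16, -0.27, -0.079 and -0.017, both near 0 on day 5. Complex II had -0.51 on day 0 and -0.028, 0.025 and -0.067 on the later days. With 1 array per arm and day these values had no test.

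**Figure D3:**
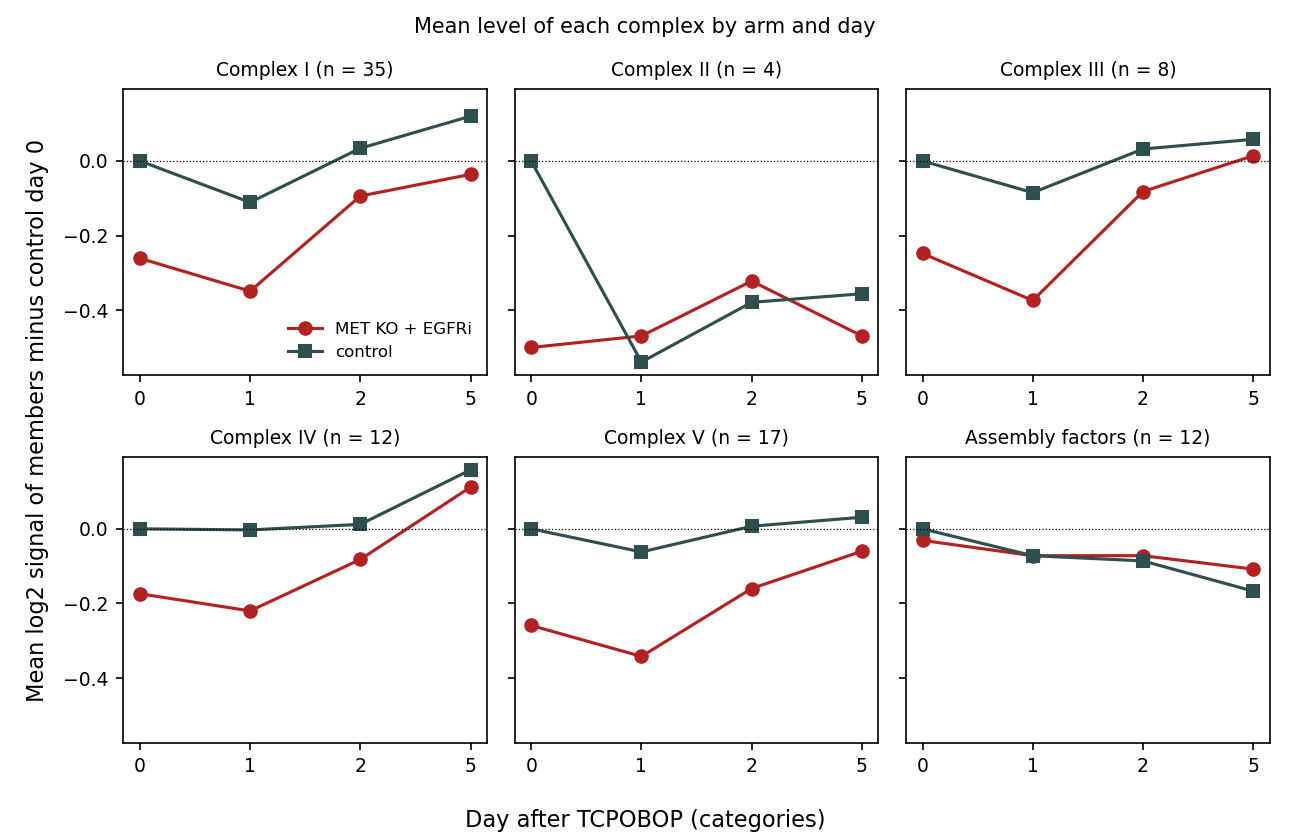
Mean log2 signal of the members of each complex on each array, minus the control array of day 0 (vertical axis), by day after TCPOBOP. Red circles are MET KO + EGFRi and dark squares control, 1 array each. In complexes I, III, IV and V the MET KO + EGFRi line runs below control and is lowest on day 1, while in complex II the control line lies far above on day 0 only.

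Few members passed 1.5-fold on any day. Their share lower in MET KO + EGFRi livers was near the background on days 0 and 1 and below it on days 2 and 5. On day 0, 9 members were at least 1.5-fold lower in MET KO + EGFRi livers and 0 higher, against 8.24% lower and 7.54% higher of all genes. On day 1 there were 8 lower and 1 higher, against 8.41 and 8.79%. On day 2 there were 4 lower and 3 higher, against 8 and 10.2%, and on day 5 there were 0 lower and 2 higher, against 7.86 and 7.81%. On day 0 Atp5c1 (-0.82 on the log2 scale) and Sdhd (-0.79) lay furthest below control, and Ndufaf1 (0.38) and Cox6a1 (0.20) furthest above. On day 1 they were Atp5md (-1.02), a small membrane subunit of complex V, and Ndufs5 (-0.85), while Sdhc (0.66) and Ndufaf6 (0.48) lay furthest above. On day 2 Ndufaf5 (-0.74) and Ndufs5 (-0.67) were furthest below and Ndufa4l2 (0.96) and Ndufaf8 (0.64) furthest above. On day 5 Cox7a2 (-0.55) and Ndufb7 (-0.54) were furthest below and Atp5g1 (0.76) and Ndufaf8 (0.68) furthest above.

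Which array held a member's lowest value was uneven. The MET KO + EGFRi array of day 1 was the lowest of the 8 for 44 of the 88 members (50%), against 11.9% of all genes. The day 0 array of that arm was lowest for a further 15 members (17%), against 13.4% of all genes. The highest value was on the control array of day 5 for 29 members (33%), against 16.1% of all genes, and on the control array of day 0 for 21 (23.9%), against 15.2%. These shares describe 8 single arrays and were not tested.

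**Figure D4:**
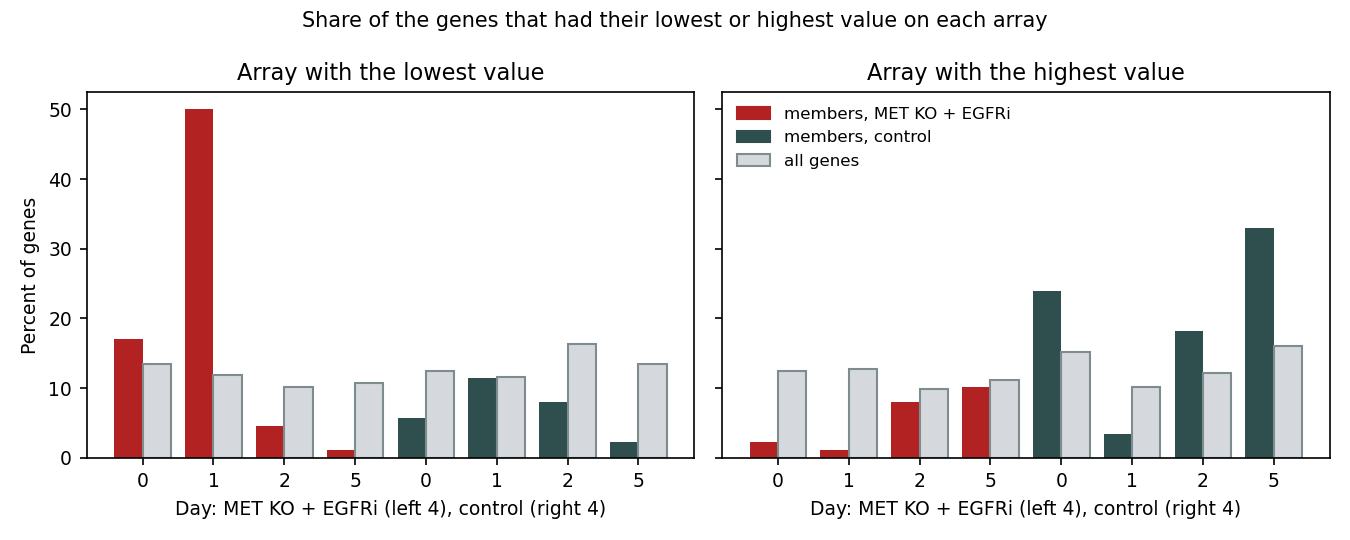
Percentage of the 88 members (coloured bars) and of all 12110 genes (grey bars) whose lowest (left panel) or highest (right panel) value was on each array. Red bars are the MET KO + EGFRi arrays and dark bars the control arrays of days 0, 1, 2 and 5. The MET KO + EGFRi array of day 1 holds the lowest value of 50% of members.

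The response to TCPOBOP shared by the arms was small for these genes. Averaged over arms, 0 members were called on day 1, 2 or 5 relative to day 0, with smallest limma adjusted p of 0.591, 0.499 and 0.174. The background of calls over all genes was 0.116% higher and 0.00826% lower on day 1, 0.0578% higher and 0% lower on day 2, and 0.239% higher and 0.0495% lower on day 5. The median member was at -0.091 on day 1, 0.061 on day 2 and 0.13 on day 5, where 67 of 88 were above day 0. At an unadjusted p under 0.05, 0 members were higher and 3 lower on day 1, against 4.49 and 3.2% of all genes, and 1 was higher and 1 lower on day 2, against 4.32 and 3.34%. By the same measure, 7 members were higher on day 5 and 2 lower, against 6.03 and 4.69% of all genes. Of the 7166 genes above the upper quartile, 568 were higher and 380 lower by that measure, so the share of members that were higher was near the background. All 7 were subunits, and the 2 were the assembly factors Sdhaf2 and Ndufaf4. A difference between these classes was not tested. Cox6a1, the liver form of a complex IV subunit, was 0.68 above day 0 (limma adjusted p 0.249), with signals of 22786, 23271, 26913 and 34969 in MET KO + EGFRi livers and 19817, 26270.4, 24241 and 33045 in control livers. A further probe set of Cox6a1 rose much less. It had 6257, 5886.9, 6168.1 and 6770.8 in MET KO + EGFRi livers and 6763.7, 6779.5, 7419.5 and 7737.5 in control livers. Ndufa8, an accessory subunit of complex I, was 0.61 above day 0 (limma adjusted p 0.274), with 4018, 4978, 4819.6 and 6413 in MET KO + EGFRi livers and 4661, 6304, 6829 and 6896 in control livers. In both arms these genes had lower values on day 0 than on day 5.

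Within each arm the change from its own day 0 differed in size. The median member of MET KO + EGFRi livers was at -0.091 on day 1, 0.12 on day 2 and 0.19 on day 5, and that of control livers at -0.058, 0.023 and 0.053. Under quantile normalization the control medians became -0.20, -0.12 and -0.02, so that their direction on days 2 and 5 turned, while those of MET KO + EGFRi livers kept theirs. At least 1.5-fold from its own day 0 in MET KO + EGFRi livers, day 1 had 0 members in either direction, day 2 had 1 lower (Atp5g1), and day 5 had 5 higher (Ndufa13, Ndufa8, Sdhb, Cox6a1 and Atp5k) and 1 lower (Sdhaf2). The background of all genes in that arm was 5.87% lower and 6.05% higher on day 1, 7.51 and 7.57% on day 2, and 8.22 and 8.97% on day 5. In control livers 4 members were lower (Ndufa5, Ndufb7, Sdhc and Sdhd) and 1 higher (Ndufs4) on day 1, 2 lower (Ndufa4l2 and Ndufb9) and 1 higher (Ndufs4) on day 2, and 5 lower (Ndufaf5, Sdhaf2, Sdhc, Uqcrfs1 and Atp5g1) and 1 higher (Cox6a1) on day 5. The background there was 8.57% lower and 7.95% higher, 10.4 and 8.42%, and 9.15 and 9.07%.

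Complex II was the exception in control livers, where 4 of 4 subunits were below their day 0 level on each later day, with medians of -0.48, -0.43 and -0.32. In MET KO + EGFRi livers the medians were 0.031, 0.17 and -0.092. The difference in response between arms was tested as an interaction, in which 0 members and 0 of all 12110 genes were called by limma. At an unadjusted p under 0.05 there was 1 member, Sdhd, with an interaction of 0.75 on the log2 scale (SE 0.31, unadjusted p 0.0449, adjusted p 0.9993), against 2.05% of all genes higher and 2.39% lower. Sdhd, whose promoter stretch is shown above, rests on 1 high control array on day 0 in its chosen probe set. Its other probe set had 1399, 856.5, 877.5 and 878 in MET KO + EGFRi livers and 1187.5, 1191, 929 and 952.5 in control livers, and was above control on day 0. Likewise the low day 1 value of Sdhc in control livers was not seen in its other probe set, with 3969, 3442, 3985 and 3623 in MET KO + EGFRi livers and 4221, 3666, 4148 and 3603.5 in control livers.

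**Figure D5:**
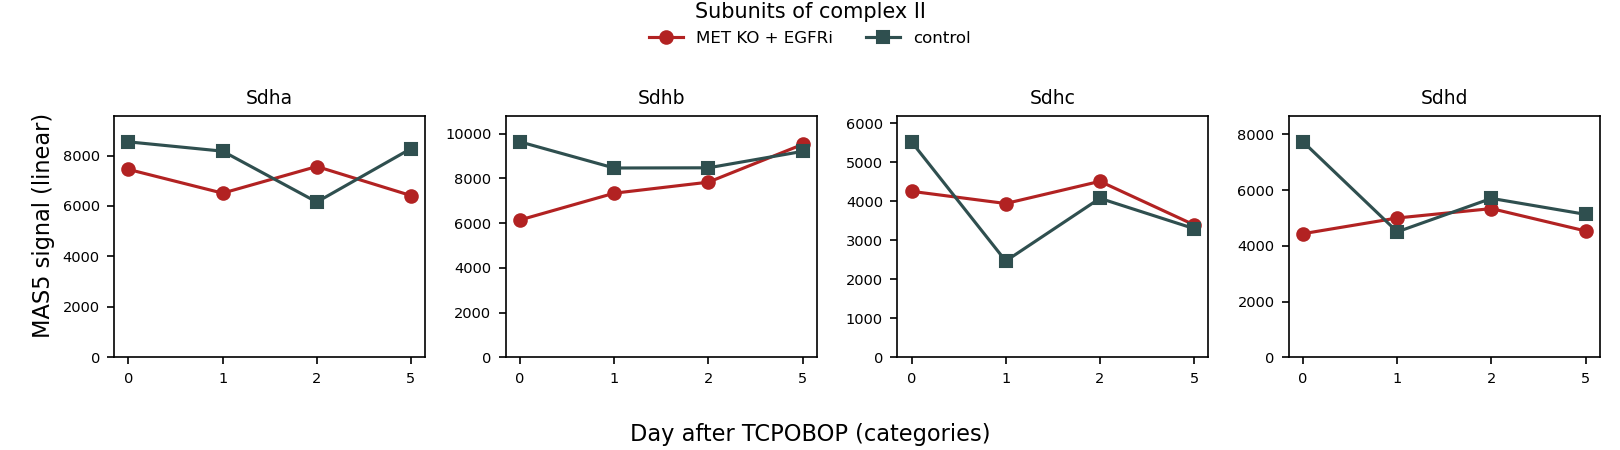
MAS5 signal (linear scale, each panel with its own axis from 0) of the 4 subunits of complex II by day after TCPOBOP, with MET KO + EGFRi as red circles and control as dark squares, 1 array each. Control is above MET KO + EGFRi for all 4 on day 0, and the lines cross on later days for each of them.

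Other genes of the pathway were read from lists with the same fit, and none of their members was called between arms. Among carriers and partners of the chain, 7 of 14 were lower in MET KO + EGFRi livers, with a median of -0.030. Cytochrome c, encoded by Cycs, was the furthest from 0, with 10779.9, 7854, 8007.5 and 6179 in MET KO + EGFRi livers, against 13015, 14759.8, 14918 and 10011 in control livers. The mean difference was -0.69 (SE 0.15, limma adjusted p 0.13), and the day 0 value of MET KO + EGFRi livers exceeded the day 5 value of control livers. Cyc1, the cytochrome subunit of complex III whose symbol lies outside the prefixes, had 8569, 8509, 10219 and 10584 in MET KO + EGFRi livers, against 10316, 10403, 11666 and 11452 in control livers. It was lower on each day, with a mean difference of -0.21 (limma adjusted p 0.54). Higd1a of the same list had 2201, 2532, 2351 and 3712 in MET KO + EGFRi livers, against 3650, 4147, 3880 and 3160.5 in control livers. It was lower on days 0, 1 and 2 and higher on day 5, with a mean difference of -0.47 (limma adjusted p 0.368). Etfa, which passes electrons from fatty acid oxidation, had 7481.5, 7903, 8415 and 6707 in MET KO + EGFRi livers, against 11383, 10302, 10053 and 9357 in control livers, without overlap (limma adjusted p 0.236).

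The citrate cycle, which feeds complexes I and II, had 13 of 18 genes lower in MET KO + EGFRi livers, with a median of -0.17, close to that of the subunits. Cs, citrate synthase, had 1446.5, 2054, 1804 and 2734 in MET KO + EGFRi livers, against 2655.5, 3429.9, 2898 and 3704 in control livers, a difference of -0.66 (SE 0.13, limma adjusted p 0.0969). Idh2, the mitochondrial NADP-dependent isocitrate dehydrogenase, had 1062, 867, 1615 and 1343 in MET KO + EGFRi livers, against 1437, 2805, 1852 and 2574 in control livers, lower on each day (limma adjusted p 0.232). Fh1, fumarase, was higher on average, with a mean difference of 0.48 and signals of 8075, 8363, 3505.5 and 3956 in MET KO + EGFRi livers and 4218, 4079, 4644 and 3079.6 in control livers.

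Genes that maintain and transcribe mitochondrial DNA were mostly on the other side, with 11 of 13 higher in MET KO + EGFRi livers and a median of 0.090. Tfam, which packages and transcribes that DNA, had 1345, 1489.9, 2120.2 and 1740.0 in MET KO + EGFRi livers, against 1221, 1444, 1656 and 1067 in control livers, higher on each day by 0.30 on average (SE 0.15, limma adjusted p 0.474). Twnk, the mitochondrial helicase, had 1226.5, 1817, 1514 and 1491 in MET KO + EGFRi livers, against 974, 536, 959 and 1075 in control livers, without overlap (limma adjusted p 0.232). The mitochondrial ribosome had 53 of 76 genes lower with a median of -0.078, coenzyme Q synthesis 7 of 10 with -0.042, import 12 of 20 with -0.048, and chaperones 3 of 9 with 0.023. Furthest from 0 in these lists were Mrpl52 of the ribosome (-1.16, limma adjusted p 0.437), Coq4 (0.91, 0.42), Timm17b of the import machinery (-0.33, 0.529) and the protease subunit Clpx (0.27, 0.729). Among the assembly factors outside the prefixes, the copper chaperone Cox17 was furthest from 0 (-0.42, limma adjusted p 0.378). ND5, the gene of mitochondrial DNA measured here, had 26919, 29652, 28374 and 22180.4 in MET KO + EGFRi livers and 26801, 33763, 30303 and 27085.5 in control livers, with overlap.

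Regulators of respiratory genes had 5 of 12 lower in MET KO + EGFRi livers, with a median of 0.056. The coactivators Ppargc1a and Ppargc1b differed by 0.18 and 0.029, with limma adjusted p of 0.755 and 0.984. The factors Nrf1, Gabpa and Esrra differed by -0.012, -0.22 and -0.17, each with overlap between arms. Pprc1, a coactivator related to Ppargc1a, was above control on each day, with 613, 619, 396 and 463 in MET KO + EGFRi livers, against 495, 251, 264.5 and 298 in control livers (limma adjusted p 0.246).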

How the data were processed

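Signal intensities of 45101 probe sets on 8 arrays were deposited by the authors as linear MAS5 values, per the submitters' processing notes; the software version is not given in the sources used here. Each group was 1 array of pooled livers. Probe sets were named through the platform's gene table: 34945 had 1 gene, 932 several and 9160 no entry. Each gene was read from its brightest probe set. Values were taken as log2(signal + 71), where 71 is the lower quartile of all values, and 12110 genes whose mean reached 8.24 (the median probe set) were kept. Arms were compared with limma 3.58.1 in R 4.3.3, with arm and day as terms, a trend in the prior variance and 3 residual degrees of freedom, and the difference in response between arms with arm by after day 0 as a further term (2 residual degrees of freedom). P-values were Benjamini-Hochberg adjusted over all 12110 genes at 0.05, and those quoted as unadjusted are marked so. Single days and changes within an arm were described with a threshold of 1.5-fold and no test. The fit was tested on simulated data.

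The days served as blocks because the labels give each arm the same 4 days; no array had a replicate, so p-values measure the spread between pools of different days only. Named were the highest and lowest members of each complex, those furthest from 0 on a single day or within an arm, members without overlap between arms, preset subunits and complex IV tissue forms. Ndufb1, Cox7c, Ndufb8, Ndufs3, Ndufs7, Ndufa4, Ndufaf4, Ndufaf7 and Atp5k lay outside this rule and were chosen after their values were seen. Of the other lists, preset genes and the 1 to 3 genes furthest from 0 were named. The members and the gene lists were chosen with earlier results of these data known. Alternatives were quantile normalization, median centring, other pseudocounts and filters, other probe set rules, no day term, no variance trend and leaving out each array. Promoter sequences were RefSeq's for GRCm38.p6.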

Additional observations from a re-analysis of the deposited data

Results flagged for a closer look

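For 7 members every day after day 0 lay on one side of day 0 in MET KO + EGFRi livers and on the other side in control livers. The difference in response, MET KO + EGFRi minus control as the mean of the later days, was 0.75 for Sdhd, 0.55 for Sdhb, 0.59 for Atp5c1, 0.74 for Ndufaf6 and 0.74 for Cox4i2 on the log2 scale, all above day 0 in MET KO + EGFRi livers and below it in control livers. It was -0.28 for Ndufaf7 and -0.14 for Atp5b, with the reverse pattern. Of all 12110 genes, 5.83% had the first pattern and 4% the reverse. In limma's interaction test none of the 7 was called, with an adjusted p of 0.9993 for each. Each rests on the single day 0 array of each arm. The other probe sets of Sdhd and Atp5c1 did not show the pattern, and that of Sdhd was below its day 0 value on all later days in MET KO + EGFRi livers. Groups of 1 array could not be searched for a stray sample.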

How the results depend on the processing

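The precision is limited by 8 arrays, 1 per group, and signals near the filter are the least certain. No member was called in any contrast under any alternative. The smallest adjusted p of a member in the arm difference was 0.0711, for Cox7a2 under quantile normalization. The median arm difference of all members stayed between -0.18 and -0.146, and between -0.182 and -0.143 with 1 array left out. Of 1277 alternative values of 81 results, 1205 kept their direction and side of the threshold or moved little. Part of that count was fixed in advance. A single-day or within-arm median cannot change when an array it does not use is left out. Leaving out either array of a day gives the same arm differences, so these settings are not independent. Without the day as a block (no replicate block, no day term) 0 members were called, and 47 of all genes were called, against 68 with it. Members lower at an unadjusted p under 0.05 numbered 16, and 5 to 16 with 1 array left out. All genes called numbered 27 to 91 under the other settings and 18 to 56 with 1 array left out.

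The median of the assembly factors, 0.028, became 0.064 with the upper quartile filter, 0.01 with the mean of probe sets and 0.047 without _s_at and _x_at probe sets, and ran from -0.014 to 0.096 with 1 array left out. Under quantile normalization the arm medians were -0.27 on day 0 and -0.154 on day 1, and the control changes from day 0 were -0.199, -0.121 and -0.02 on days 1, 2 and 5. Direction turned for Atp5g2 under median centring (-0.001), for Sdhc without _s_at and _x_at probe sets (-0.057), and with the mean of probe sets for Cox6a1 (-0.064), Cox6a2 (0.421), Cox6c (0.055), Cox7a2l (0.058), Sdha (0.018), Uqcrc2 (-0.085) and Uqcrh (-0.015). Leaving out 1 array turned it for Atp5a1 (-0.155 to 0.06), Atp5g1 (-0.298 to 0.13), Atp5g2 (-0.045 to 0.096), Atp5g3 (-0.118 to 0.027), Cox4i1 (-0.13 to 0.036), Cox4i2 (-0.177 to 0.12), Cox6a2 (-0.18 to 0.008), Cox8c (-0.195 to 0.019), Ndufa13 (-0.147 to 0.022), Sdhaf3 (-0.13 to 0.172), Sdhc (-0.062 to 0.281), Uqcrc2 (-0.027 to 0.082) and Uqcrh (-0.103 to 0.111). The cause was not tested. The interaction cannot be estimated without a day 0 array.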
